A study of Mus musculus with 6 samples.

Results

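The sites described here are the 903 of 5538 guanine-rich RNA motifs that stopped reverse transcriptase most in RNA tested in vitro. A motif was taken when at least 20 K+ reads covered it and at least 70% of those reads stopped there, in both in vitro tables. These 903 sites (16.3% of the table) lay in 798 of 2643 gene entries and formed 890 separate loci once overlapping motifs were merged. The K+ stop share in vitro chose the sites, so it is given as a description, and their shares in cells, which the choice did not use, are the results. The in vitro tables belong to the day 7 samples, so a site also needed enough reads in that RNA to be chosen.

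The cells were a clonal TsixTST/+ mouse embryonic stem cell line, derived from 129S1/CastEiJ x 129S1 and labelled as genotype WT. The treatment label reads None, although the protocol describes the chemical treatment given here. All groups share this line, so every value comes from 1 clone. The day 0 group held 2 samples of the undifferentiated cells, which are maintained on inactivated feeders with leukemia inhibitory factor (LIF). The day 3 group held 2 samples of feeder-depleted embryoid bodies kept in suspension without LIF, and the day 7 group held 2 samples of embryoid bodies that had been moved at day 3 to gelatinized plates and grew attached. All 6 samples were trypsinized and treated with dimethyl sulfate (DMS) as living cells, and polyadenylated RNA bound to chromatin was then fragmented and reverse transcribed once with K+ and once with Li+. The labels do not describe how the in vitro RNA was prepared, and they do not say whether the 2 samples of a day were separate cultures, so p-values measure only the spread between these samples.

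An RNA G-quadruplex forms when runs of guanines stack in planes of 4, held together by hydrogen bonds on the N7 face of the base and by a central cation. K+ fits that centre and makes the fold stable enough to block reverse transcriptase, while Li+ does not. DMS methylates the guanine N7, which an unfolded motif exposes and a folded one hides. RNA whose motif was open in the cell therefore loses the ability to refold in the tube, whereas RNA whose motif was folded in the cell keeps it and stops the enzyme in K+.

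The motifs on which the results turn are printed 5′ to 3′ as DNA letters from the deposited table, with runs of 2 or more guanines in capitals. The first 8 are canonical motifs with short loops. They include sites with high shares in cells on day 7 (Xist, Midn, Luc7l2, Cd151). The others are the pair that an exact test called in both replicates of a comparison (Lin28a, Raly) and deeply covered sites (Arpc3, Laptm4a).
Xist: GGGtGGGtGGGtGGGtGGGtGGG
Midn: GGGGtGGGtGGGtGGG
Luc7l2: GGGaGGGGtGGGtGGG
Lin28a: GGGGaGGGtGGGaaaGGG
Raly: GGGGGGaGGGtGGGaaGGGtGGG
Cd151: GGGGGGGGGGGGtGGGGGG
Laptm4a: GGGtatGGGGGGGaGGGG
Arpc3: GGGaGGGtGGGtgtcGGG

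The next set carries a bulge, a pair of quartets only, or a long loop, and shows that high in vitro shares were not limited to canonical motifs. Eef2, Snrpd3, Thrap3 and Kifc5b are bulged, St13, Snrnp70 and Hnrnpa0 are two-quartet motifs, and Malat1 has a long loop.
Eef2: GGactGGcaGGctgtGGGGtGGGcGGG
Snrpd3: GGGagaGGacgtGGGatGGG
Thrap3: gctGGtGGtgtGGGGGGtGGGcaGGG
Kifc5b: GGtGGGGGtGGGtGGG
St13: GGGcaGGGaGGtgagtGG
Snrnp70: GGaGGcagaGGGtGGtgatGGG
Hnrnpa0: GGGtGGGGGttGGGcGG
Malat1: GGGtGGGcttttgttgatgaGGGaGGGG

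By the structural classes of the deposited table, 361 members were bulged (40% of members), 244 canonical with loops of 1 to 7 bases (27.0%), 139 two-quartet (15.4%) and 114 long-loop (12.6%). A further 39 were listed as potential G-quadruplexes and 6 as potential G-triplexes, both with at least 40% guanine. Among all canonical sites, 28.1% were members, compared with 15.6% of bulged, 16.7% of long-loop, 13.1% of two-quartet and 6.87% of potential G-quadruplex sites. The 3′ untranslated region held 568 members (62.9%, against 50.1% of all sites), coding sequence 163, the 5′ untranslated region 72 and noncoding transcripts 39. The other 61 were assigned to more than 1 region. Member motifs were short and rich in guanine: their median length was 24 nt and their median guanine content 65.2%, against 28 nt and 60.9% for the other sites. Within the canonical class the medians were 20 nt and 24 nt. These features were not tested, since the choice of sites fixed both groups.

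Members were spread over many genes. A single member was found in 701 gene entries, 2 in 90, and 3 or more in 7. Dynll2, which encodes a light chain of dynein and myosin V, held 4 in its 3′ untranslated region, and Rcc1, Tnpo2, Ubtf, Trim71, Pdzd4 and Pbx2 held 3 each. Of the 825 gene symbols, 810 matched the RefSeq gene table, 3 of them only as a synonym. None of the members lay in ribosomal or mitochondrial RNA, and 31 lay on chromosome X.

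In vitro, the median K+ stop share of members was 81.8% in replicate 1 and 82.8% in replicate 2, and it was 50.0% and 51.4% over all sites. At least 80% of reads stopped in both replicates at 444 members and at least 90% at 105. The highest shares were at Brd8 (100% and 98.8%), a bromodomain protein of a histone acetyltransferase complex, Vgll4 (98.7% and 99.2%), a cofactor of TEAD transcription factors, and Spryd3 (100% and 98.0%). They were followed by Midn (98.0% and 97.7%) and by Nfrkb (100% and 97.6%), a subunit of the INO80 chromatin remodeller. Just inside the threshold lay Inava (70% and 77.6%), Farp1 (71.7% and 70%) and Taf8 (70.3% and 70%), and just outside it lay Tspan7 (163 of 233 reads and 75.0%), Yap1 (69.9% and 74.3%) and Mpdu1 (69.9% and 77.5%). With Li+ the in vitro medians of members were 10.5% and 10.0%. Several members nevertheless stopped the enzyme strongly in Li+, such as Vgll4 (82.6% in replicate 1), Midn (78.8% and 78.5%) and Xist (63.3% and 67.5%).

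In cells, coverage limited what could be seen. Each library covered between 105 and 797 members with at least 20 reads, 72 members reached that depth in all 12 in-cell libraries, and 104 did so in none. The tables list no coverage between 1 and 5 reads, so a listed 0 means at most 5 reads, and 2 members had no listed read in cells. At 20 reads a single stop gives 5% with an exact 95% interval from 0.127% to 24.9%, and 0 stops still allow 16.8%. Total reads over members ran from 6621 in the K+ library of day 3 replicate 1 to 133052 in the Li+ library of day 7 replicate 1. Sequencing reads are not independent molecules here, so such intervals cover counting error only.

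Some libraries stood apart across the whole table. The K+ library of day 3 replicate 1 had the fewest member reads and the highest K+ level, with a median over all sites of 5.45%, compared with 1.93% to 4.48% in the other K+ libraries. In day 0 replicate 1 and 2 and in day 7 replicate 2, the Li+ median over all sites was above the K+ median. At marker genes with a listed site, summed reads differed by day. Of 12 pluripotency genes, 6 had a site, with 8572 to 9931 reads per 1000000 on day 0 and 4681 to 5417 on day 7. Of 13 early differentiation genes, 8 had a site, with 87.9 to 262 on day 0 and 29025 to 58909 on day 7. In each day 0 sample 7 of these 8 genes were at 0. On day 3 the 8 genes had 3258 and 2075, with 5 and 4 genes at 0. Of 16 feeder fibroblast genes, 3 had a site, at 162 to 485 reads per 1000000 on day 0 and 723 to 854 on day 7, and Col1a1 was at 0 in the samples of days 0 and 3. The part of these differences in the stop shares was not tested, and in such bulk samples fewer cells of a type and less RNA per cell cannot be told apart.

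The K+ stop shares of members were far lower in cells than in vitro. The medians over members were 3.40% and 1.68% in the 2 replicates of day 0, then 13.8% and 4.88% on day 3, and 7.95% and 5.77% on day 7. In Li+ the medians of members were 4.55% and 6.15% on day 0, then 3.57% and 1.79% on day 3, and 4.55% and 6.67% on day 7, above K+ in both day 0 samples and in day 7 replicate 2. As means of the replicate medians the K+ shares were 2.54% ± 1.21, 9.34% ± 6.30 and 6.86% ± 1.55 (SD, n = 2), against 82.3% ± 0.665 in vitro (SD, n = 2). The Li+ means were 5.35% ± 1.14, 2.68% ± 1.26 and 5.61% ± 1.50 in cells (SD, n = 2). Of the 423 members with at least 20 K+ reads in both day 7 replicates, 422 had a stop, and their in vitro share was a median of 11.7 times their day 7 share, with a range from 1.82 to 138 times. Over all sites the K+ means of the medians were 50.7% in vitro and 2.21%, 4.24% and 3.72% on days 0, 3 and 7. Lower shares in cells were thus not particular to members. Since the in vitro share chose the members, their contrast is a description and has no test.

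**Figure D1:**
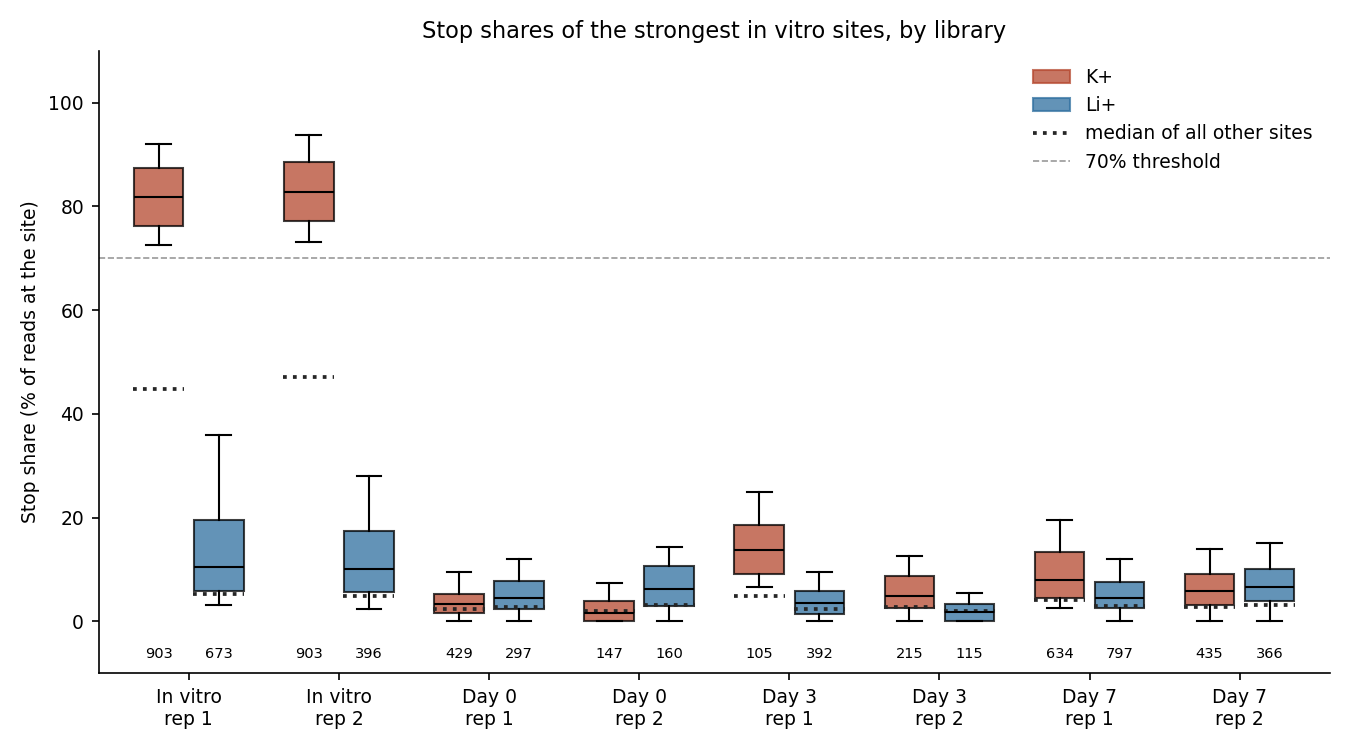
Stop share (% of reads that stop at the site) of the 903 strongest in vitro sites in each library, for K+ (red) and Li+ (blue); boxes span the quartiles with the median, whiskers run from the 10th to the 90th percentile, numbers give the members with at least 20 reads, and dotted lines mark the median of all other sites. The in vitro K+ boxes lie above the 70% line that chose them, and all in-cell boxes lie below 20%.

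In no in-cell K+ library did a member covered by at least 20 reads reach the 70% that chose it. Below that depth some did: for example, Hnrnpul1 had 8 stops in 8 reads in day 3 replicate 1 and Xist 5 in 7 in day 3 replicate 2. Among the 664 members with at least 20 reads in some in-cell K+ library, 91 reached 20% in at least 1 library. In the day 7 replicates 62 and 14 members did so (9.78% and 3.22%, against 3.67% and 1.11% of all sites). On day 3 these were 22 and 4 (21.0% and 1.86%, against 7.97% and 1.12%). On day 0 they were 2 and 2 (0.466% and 1.36%, against 0.398% and 0.754%). A share of 50% was reached by 4 members. These 4, singled out for their values, were Xist, Ankrd11, Nop53 and Pdzd4. At Nop53, which encodes a ribosome assembly factor, the share was 50.5% in day 7 replicate 1 (47 of 93 reads), where Li+ gave 39.1%, and 6.15% in replicate 2. At Pdzd4 it was 50.0% in day 3 replicate 1 (12 of 24 reads) and 1.96% in replicate 2. Neither high value was repeated in the other sample of its day. Ankrd11, a chromatin regulator, had 56.2% and 36.1% on day 7, and its Li+ reads stopped at 48.1% in replicate 1 and at 9 of 18 in replicate 2, where Li+ was the higher.

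By the lower of the day 7 K+ shares, the highest member was Xist, the noncoding RNA that coats the inactive X chromosome. Its member motif lies at chrX:103460424-103460446 on the minus strand (mm10) and consists of 6 runs of 3 guanines, each parted by a single base. On days 0 and 3 it was listed at 0 reads except for the K+ library of day 3 replicate 2, with 5 stops in 7 reads. On day 7 the K+ share was 51.1% (91 of 178 reads; exact 95% interval 43.5% to 58.7%) in replicate 1 and 41.8% (41 of 98; 31.9% to 52.2%) in replicate 2. The Li+ share was 26.9% (64 of 238) and 27.0% (17 of 63). Both K+ values therefore lay above both Li+ values, by 19.5 percentage points on average, the largest mean difference among the 340 members with enough reads in all 4 day 7 libraries. The log2 odds difference was 1.26 ± 0.29 (SE). With an adjusted p of 0.998 over all 3045 sites in limma it was not called. Within replicates, Fisher's exact test called Xist higher in K+ in replicate 1 (adjusted p = 4.14e-05) and did not call it in replicate 2.

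Midn, which encodes midnolin, carries 4 guanine runs parted by single bases at chr10:80157935-80157950 (plus strand, 3′ untranslated region). Its day 7 K+ share was 33.3% (23 of 69 reads; exact 95% interval 22.4% to 45.7%) and 27.6% (8 of 29; 12.7% to 47.2%). In Li+ it was 7.98% in replicate 1 (13 of 163), and replicate 2 had 7 stops in 12 reads, too few for a share. Replicate 1 was thus higher in K+ (adjusted p = 0.000307, Fisher's exact test over all sites of that replicate). In replicate 2 the few Li+ reads went the other way, with 7 stops in 12, and were too few to be compared.

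Other members with at least 20% in both day 7 K+ libraries were Hnrnpul1 (39.4% and 35.0%), an RNA-binding protein of the hnRNP family, the tetraspanin Cd151 (28.8% and 25.0%), the kinesin Kifc5b (22.0% and 20.0%) and Xiap (20.0% and 20.0%), an inhibitor of caspases. Together with Xist, Midn and Ankrd11 they make up all 7, of which 3 (Xist, Hnrnpul1 and Ankrd11) were at 30% or more in both. Reads were as few as 20 at Xiap and Hnrnpul1. These sites were singled out for their values and are given as a description.

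On day 7, sites that stopped more in vitro also had higher shares in cells, in K+ and in Li+. When all sites were ordered by the lower of their in vitro shares, the median K+ share in day 7 replicate 1 was 2.78% below 30% in vitro, 6.98% between 70% and 80%, and 10.6% at 90% or more. In Li+ the same steps gave 2.29%, 4.10% and 6.54%. In day 7 replicate 2 the K+ medians were 2.03%, 5.00% and 6.28% and the Li+ medians 2.27%, 5.68% and 10.9%, so there the Li+ series was the higher at every step. On day 0 the steps were smaller in K+. The median in replicate 1 was 2.11% in the lowest step and 3.23% between 70% and 80%. In replicate 2 these medians were 1.83% and 1.92%. For the same steps the day 0 Li+ medians were 2.21% and 4.41% in replicate 1 and 2.41% and 5.91% in replicate 2. The day 3 K+ medians were 3.85% and 13.6% in replicate 1 and 2.40% and 4.55% in replicate 2. In Li+ on day 3 they were 2.11% and 3.49% in replicate 1. Replicate 2 gave 1.89% and 1.71%, which did not rise. Among members alone, Spearman's rho between the mean in vitro share and the day 7 K+ share was 0.170 across 634 sites in replicate 1 and 0.196 across 435 in replicate 2. The K+ and Li+ shares of members correlated with rho of 0.532 across 634 sites in replicate 1 and 0.374 across 342 sites in replicate 2. For comparison, the 2 day 7 K+ replicates correlated with rho of 0.476 across 423 members and the 2 in vitro replicates with 0.716 across 903. These correlations are across sites, which share libraries and guanine content, and are descriptions.

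**Figure D2:**
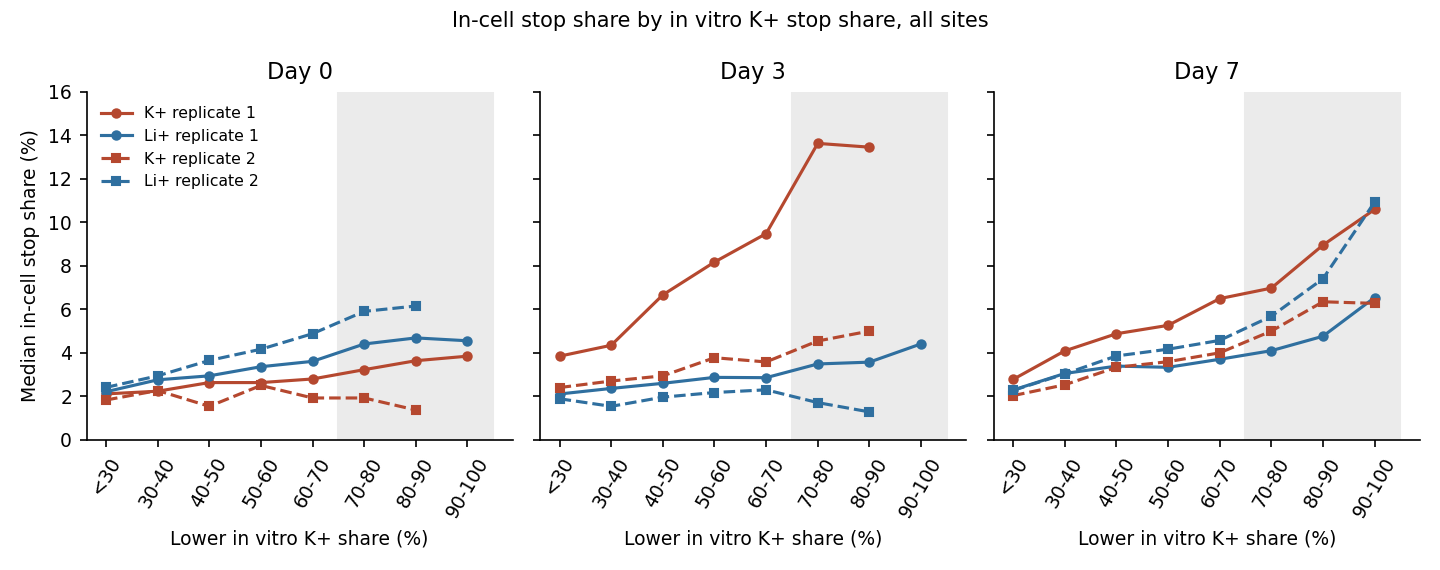
Median in-cell stop share (%) of all sites, grouped by the lower of their 2 in vitro K+ shares (%), for each day, cation and replicate; the grey area holds the members, and groups with fewer than 20 sites are not drawn. On day 7 both cations rise with the in vitro share, from 2.78% to 10.6% in K+ and from 2.29% to 6.54% in Li+ of replicate 1.

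Canonical members had the highest day 7 medians of the 4 larger structural classes, in K+ and in Li+. On day 7 the median K+ share of canonical members was 10.0% in replicate 1 and 7.73% in replicate 2, that of long-loop members 9.62% and 5.83%, of bulged members 7.53% and 4.90%, and of two-quartet members 6.20% and 5.00%. The Li+ medians of the same classes were 5.33% and 7.87%, 4.51% and 6.38%, 4.36% and 6.58%, and 3.94% and 5.79%. In replicate 2 the Li+ median was thus the higher of the cations in all 4 of these classes. Members also exceeded the other sites of their own class, for example 10.0% against 8.05% for canonical and 9.62% against 4.57% for long-loop sites in K+ of replicate 1. The 6 potential G-triplex members gave medians over 5 and 3 sites only and are not drawn. By region, the K+ medians of members in replicate 1 were 8.45% in 3′ untranslated regions, 8.51% in 5′ untranslated regions, 8.70% in noncoding transcripts and 6.67% in coding sequence. In replicate 2 they were 5.88%, 5.77%, 8.40% and 4.35%, so coding sequence was the lowest of these in both.

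**Figure D3:**
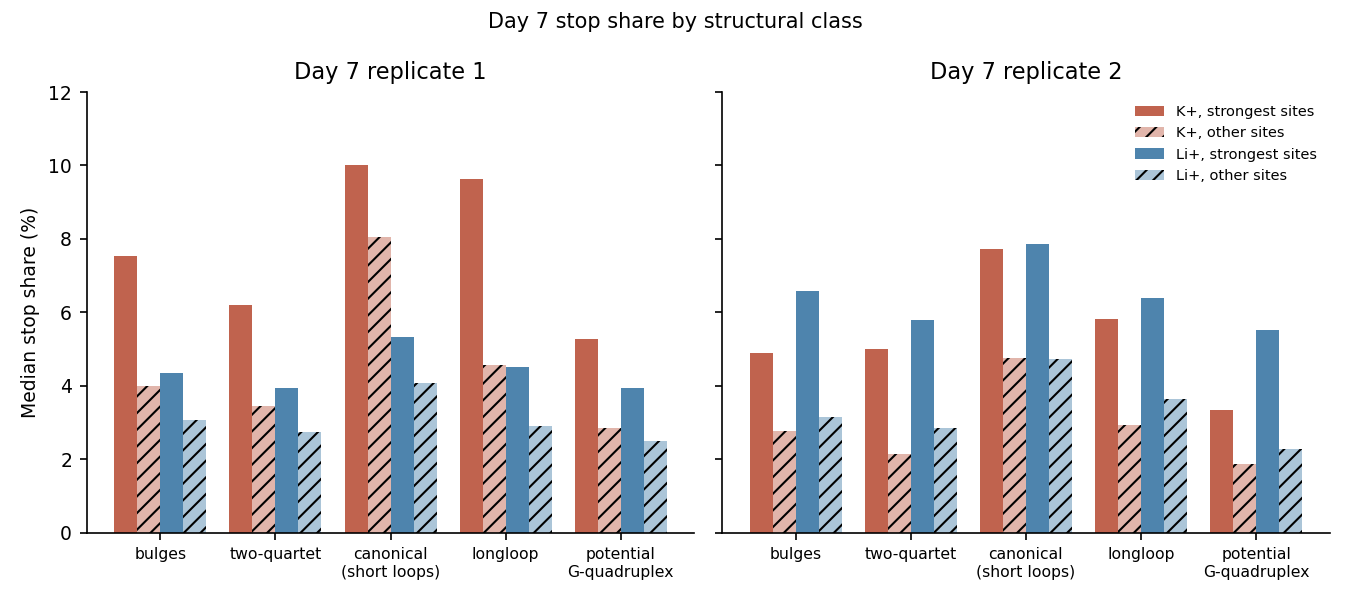
Median day 7 stop share (%) in K+ (red) and Li+ (blue) by structural class, for the strongest in vitro sites (solid) and the other sites of the class (hatched), with replicate 1 on the left and replicate 2 on the right. Canonical members have the highest K+ median of the classes drawn in both replicates, 10.0% and 7.73%, while Li+ exceeds K+ for members in replicate 2.

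The K+ and Li+ libraries of a sample come from the same DMS-treated RNA, and K+ stabilises G-quadruplexes more than Li+ does, which is why they are compared. They also differed in level over all sites, as given above, and the part of that in the differences was not tested. The labels do not settle whether cation columns were exchanged in the second samples of days 0 and 7, so values with them exchanged are given too. Day 0 replicate 1 also had Li+ medians above its K+ medians, and its columns were not exchanged in any fit. On day 0 the difference was below 0 for members in both samples. In replicate 1 the median difference, K+ minus Li+, was -0.434 percentage points over the 123 members with enough reads in all 4 day 0 libraries, and in replicate 2 it was -3.62. K+ was above Li+ in both replicates at 8 of 123 members (6.50%, against 13.7% of all sites) and Li+ above K+ in both at 52 (42.3%, against 32.3%). Both K+ libraries lay above both Li+ libraries at 3 members (8.5% of all sites) and below them at 43 (24.8% of all sites). The 3, named after their values were seen, were Ambra1, Copg2 and AU020206, each with at most 11 K+ stops in a library. In limma the median log2 odds difference was -0.54 for members and -0.35 for all 1282 sites tested. None of the 123 members and none of the other sites was called (percent called 0), and 8 members, all lower in K+, were among 32 sites at an unadjusted p under 0.05. Within replicates, Fisher's exact test called none of 292 members in replicate 1 (0.232% of all sites higher and 0.348% lower) and 1 of 128 in replicate 2, Lin28a, lower in K+ (0.23% of all sites higher and 1.07% lower). It called no site in both replicates (percent called 0). The median log2 odds difference was -0.41 for 292 members without replicate 2, -1.19 for 128 without replicate 1, and 0.33 with the K+ and Li+ columns of replicate 2 exchanged.

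On day 3 the median member was higher in K+ than in Li+ in both samples, by amounts that differed between them. The median difference was 10.0 percentage points in replicate 1 and 2.71 in replicate 2, over 84 members. K+ was above Li+ in both replicates at 65 of 84 members (77.4%, against 48.2% of all sites) and Li+ above K+ in both at none of them (8.5% of all sites). Both K+ libraries lay above both Li+ libraries at 53 members (63.1%, against 37.4% of all sites) and below them at none (5.7% of all sites). The median log2 odds difference was 1.31 for members and 0.73 for all sites, and without replicate 1 it was 0.85 for 114 members and 0.25 for all sites. Without replicate 2 it was 2.19 for 105 members and 1.33 for all sites. After each library was centred on its own median, the members' median was 0.55 and that of all sites -0.05. No site was called by limma (percent called 0), with 20 members among 102 sites at an unadjusted p under 0.05, all 20 higher in K+. By Fisher's exact test 40 of 105 members were higher in replicate 1 (15.6% of all sites) and 1 of 114 in replicate 2 (0.495% of all sites), so the count rests on replicate 1. No member was called lower in either replicate (0.171% and 0.33% of all sites).

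On day 7 the 2 samples differed in direction. The median difference over 340 members was 3.32 percentage points in replicate 1 and -1.08 in replicate 2. K+ was above Li+ in both replicates at 125 members (36.8%, against 30.6% of all sites) and Li+ above K+ in both at 47 (13.8%, against 16.5%). Both K+ libraries lay above both Li+ libraries at 96 members (28.2%, against 20.5% of all sites) and below them at 29 (8.53%, against 10.7%). The median log2 odds difference was 0.46 for members and 0.23 for all 3045 sites. It was 0.87 without replicate 2 and -0.26 without replicate 1, so its direction rests on replicate 1. With the K+ and Li+ columns of replicate 2 exchanged it was 0.58. Limma called no site (percent called 0), and 23 members, all higher in K+, were among the 119 sites at an unadjusted p under 0.05. By Fisher's exact test 33 of 634 members (5.21%) were higher in replicate 1 (4.44% of all sites) and none of 342 in replicate 2 (0.196% of all sites). None was lower in either (0.0224% and 0.0982% of all sites), and none passed in both (0.131% of all sites).

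**Figure D4:**
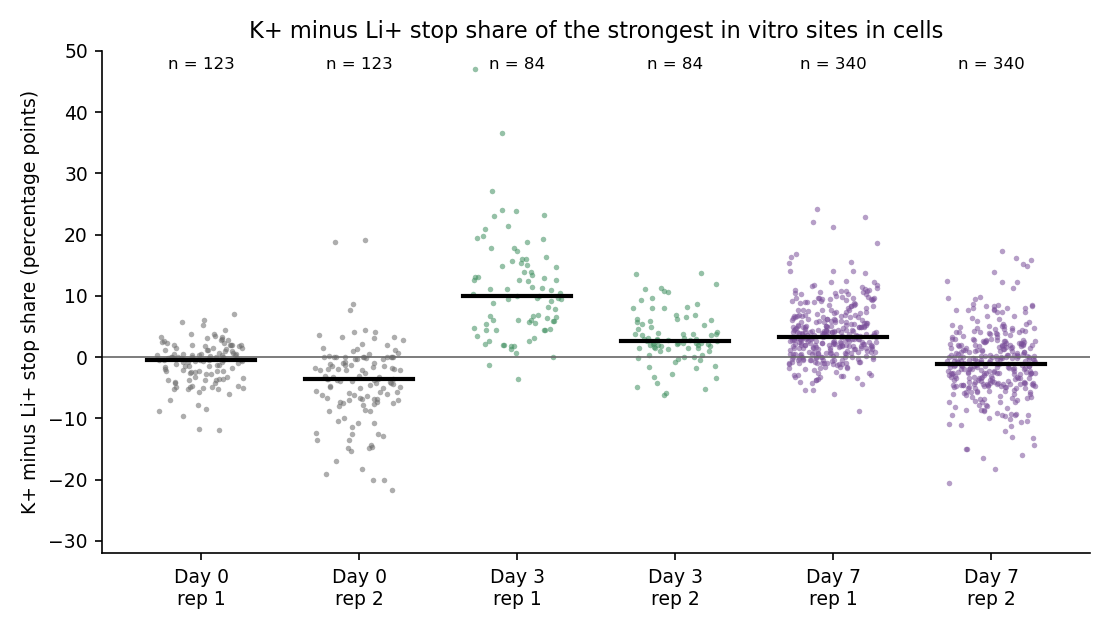
K+ minus Li+ stop share (percentage points) of each member in each sample, for members with at least 20 reads in all 4 libraries of the day; each point is 1 site, bars are medians and n gives the number of sites. The medians are -0.434 and -3.62 on day 0, then 10.0 and 2.71 on day 3, and 3.32 and -1.08 on day 7.

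Between days, the K+ medians of members in all 4 samples of days 3 and 7 were above those of both day 0 samples. Both day 3 K+ libraries lay above both day 0 libraries at 51 of 82 members (62.2%, against 37.8% of all sites), and below them at none (5.01% of all sites). Both day 7 K+ libraries lay above both day 0 libraries at 78 of 139 members (56.1%, against 40.2% of all sites) and below at 2 (7.18% of all sites), which, named after their values were seen, were Pip4k2c and 1 of the Dynll2 sites. These comparisons share the day 0 samples. The median log2 odds difference was 1.40 for day 3 against day 0 and 1.11 for day 7 against day 0, where all sites stood at 0.80 and 0.57. Without day 3 replicate 1 the first was 0.73, without day 3 replicate 2 it was 2.50, and without day 7 replicate 1 the second was 0.71. With the K+ and Li+ columns of day 0 replicate 2 exchanged they were 0.92 and 0.54. With libraries centred the medians were 0.63 and 0.48 for members and 0.03 and -0.07 for all sites. Limma called no site in either comparison (percent called 0). At an unadjusted p under 0.05, 23 members were higher on day 3, among 116 sites in all, and 28 were higher on day 7, among 143.

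Between replicates of the same number, Fisher's exact test called 37 of 104 members higher on day 3 than on day 0 in replicate 1 (13.1% of all sites) and none of 128 in replicate 2 (0.445% of all sites). None was lower in either (0.26% and 0.223% of all sites), and none passed in both (0.313% of all sites). For day 7 against day 0 it called 42 of 404 in replicate 1 (6.65% of all sites) and 1 of 140 in replicate 2 (1.18% of all sites), with none lower (0.252% and 0.278% of all sites). In limma without day 3 replicate 2, 6 of 83 members were called higher on day 3 than on day 0, among 14 of 965 sites (1.45%), at Tmed9, Tsc22d1, Ppil1, Gm20427, Malat1 and Fkbp8. That fit sets the single K+ library with the raised level over all sites against day 0, on the assumption that it varies like the others.

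Between day 3 and day 7 the direction of the K+ shares depended on the sample. Both day 7 libraries lay above both day 3 libraries at 4 of 100 members (13.5% of all sites) and below them at 22 (17.7% of all sites). The 4, again named for their values, were Gm49325, Rtn4, Rtn3 and 1 site of Trim71. The median log2 odds difference was -0.34 for members and -0.22 for all sites, and without day 3 replicate 1 it was 0.17 for 206 members. Leaving out the second day 7 sample gave 0.10, the second day 3 sample -1.21 and the first day 7 sample -0.75, and exchanging the cation columns of day 7 replicate 2 gave -0.099. Limma called no site (percent called 0), with 1 member higher and 6 lower at an unadjusted p under 0.05 among 65 sites. Without day 3 replicate 2 it called 1 of 104 members, a Malat1 site, lower on day 7, among 5 of 1159 sites (0.431%). By Fisher's exact test 8 of 104 members were lower in replicate 1 (3.62% of all sites) and none of 208 in replicate 2 (0.296% of all sites). None was higher in either (0.517% and 0.197% of all sites), and none passed in both (0.709% of all sites).

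The Li+ shares differed between days too, with the lowest member medians on day 3. Both day 3 Li+ libraries lay below both day 0 libraries at 38 of 96 members (39.6%, against 27.5% of all sites) and above at 3 (9.69% of all sites), which their values single out as Rnf145, Copg2 and Slc6a8. Both day 7 Li+ libraries lay above both day 3 libraries at 63 of 113 (55.8%, against 36.3% of all sites) and below at 5 (8.26% of all sites), named likewise, which were 1 of the Vat1 sites, Gm20427, E2f1, Fbl and Nap1l4. Between day 7 and day 0 the Li+ libraries were separated upward at 26 of 144 members (20.8% of all sites) and downward at 19 (15.5% of all sites). The change of the K+ against Li+ odds from day 0 to day 7 had a median of 1.11 for 120 members and 0.59 for all 1261 sites. Limma called none of them (percent called 0), and 19 members, all higher, were among 76 sites at an unadjusted p under 0.05. Leaving out the first day 7 sample gave a median of 0.51 for members, and leaving out the first day 0 sample 1.63. If the K+ and Li+ columns of the second day 0 sample were swapped, the members' median of this change was 0.22 and that of all sites 0.15.

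The members covered in all 12 libraries gave levels close to those of the wider list. For these 72 sites the K+ medians were 3.05% and 1.99% on day 0, then 12.8% and 4.60% on day 3, and 8.38% and 5.26% on day 7. Their Li+ medians were 4.12% and 6.11%, 2.39% and 1.96%, and 4.11% and 5.65%. Over all 847 sites covered in all 12 libraries, the K+ medians were 2.36% and 1.96%, 5.41% and 3.03%, and 4.21% and 2.73%. The Li+ medians of all these sites were 2.48% and 3.13%, 2.46% and 2.04%, and 2.99% and 3.16%. For members, the differences between days were about as large over the fixed set of 72 sites.

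Among them, the 20 sites with the highest minimum coverage lie in 18 genes and allow single sites to be followed. On day 0 the mean K+ share was below the mean Li+ share at 18 of 20, on day 3 it was above it at all 20, and on day 7 it was above at 11 and below at 9. None of the 20 was called in any comparison by limma with all samples in the fit. Both K+ libraries lay above both Li+ libraries at 0, 15 and 8 of these sites on days 0, 3 and 7. Over all sites this held at 8.5%, 37.4% and 20.5%. The mean K+ minus Li+ difference moved alike over all sites, with medians of -0.721, 1.92 and 0.432 percentage points.

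The deepest was Eef2, the elongation factor that moves the ribosome along mRNA, with a bulged motif at chr10:81182258-81182284 in its 3′ untranslated region. In vitro, 82.3% and 87.3% of reads stopped there in K+. In cells the K+ shares were 1.20% and 0.976% on day 0 (24 of 2000 and 6 of 615 reads), then 6.76% and 1.89% on day 3 (14 of 207 and 10 of 530), and 2.40% and 2.46% on day 7 (34 of 1417 and 39 of 1585). In Li+ they were 1.17% and 1.95%, 0.722% and 0.377%, and 1.81% and 4.19%. On days 0 and 7 the K+ and Li+ values of Eef2 overlapped. On day 3 both K+ values were above both Li+ values, with a log2 odds difference of 2.44 ± 1.07 (SE; limma adjusted p = 0.435).

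Snrpd3, a core protein of the spliceosomal snRNPs (chr10:75535272-75535291, coding sequence), had in vitro K+ shares of 79.9% and 84.4%. In cells the K+ shares were 3.46% and 2.67% on day 0, then 14.2% and 3.29% on day 3 and 4.95% and 1.95% on day 7. Its Li+ shares were 2.36% and 2.97%, 2.71% and 1.20%, and 2.99% and 2.51%. The cations separated on day 3 and overlapped on days 0 and 7. Snrnp70, the 70K protein of the U1 snRNP (chr7:45376645-45376666), had K+ shares of 2.99% and 2.19%, 10.8% and 3.33%, and 2.74% and 1.79%, after 71.5% and 77.1% in vitro. Its Li+ shares of 3.42% and 1.20%, 1.14% and 1.72%, and 2.06% and 3.13% again separated from K+ on day 3 only. Hnrnpa0, an RNA-binding protein that regulates mRNA stability (chr13:58127062-58127078), reached 93.0% and 86.8% in vitro, and its K+ shares were 12.9% and 4.98% on day 7 beside 5.16% and 7.55% in Li+, so these overlapped.

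Lin28a, the stem cell factor that blocks the maturation of let-7 microRNAs, had similar K+ shares in both day 3 samples. Its canonical motif lies at chr4:134003569-134003586 on the minus strand, in the 3′ untranslated region, and stopped 89.0% and 91.8% of reads in vitro. On day 3 the K+ shares were 17.1% (14 of 82) and 16.1% (30 of 186), and the Li+ shares 5.78% (17 of 294) and 2.59% (3 of 116). Both K+ values were above both Li+ values, with a log2 odds difference of 2.11 ± 0.62 (SE; limma adjusted p = 0.312). Fisher's exact test, adjusted over all sites of the replicate, gave 0.0208 and 0.0150, and Lin28a was the only member it called in both day 3 replicates (6 of 965 sites in all, 0.622%). On day 0 its K+ shares were 6.87% and 3.60% and the Li+ shares 5.88% and 18.2%, where replicate 2 was called lower in K+ (adjusted p = 0.0268, Fisher's exact test). On day 7 the K+ shares were 10.8% (120 of 1107) and 8.38% (43 of 513) beside 4.35% and 8.04% in Li+. K+ was the higher there too, by little in replicate 2.

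Raly, an hnRNP-like RNA-binding protein, was the only member called by Fisher's exact test in both replicates for day 7 against day 0 in K+ (12 of 1434 sites, 0.837%), and like Lin28a it was singled out for that. Its motif at chr2:154867190-154867212 had K+ shares of 12.3% (10 of 81) and 2.80% (3 of 107) on day 0, then 30.4% and 11.9% on day 3, and 28% (78 of 279) and 19.6% (20 of 102) on day 7. The test set same-numbered samples against each other, although their deviations did not correlate across sites between days. The higher day 0 share (12.3%) and the lower day 7 share (19.6%) lay closest. Its adjusted p values were 0.0478 and 0.0105 in the 2 replicates (Fisher's exact test). In Li+ the shares were 15.6% and 13.5% on day 0, then 3.36% and 2.50% on day 3, and 11.6% and 22.1% on day 7. K+ was above Li+ in both samples of day 3, and on day 7 in replicate 1 only. A second Raly member shares part of this sequence, at chr2:154867176-154867203, so their reads are not independent.

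Malat1, an abundant nuclear noncoding RNA, had 2 sites among the 20. The long-loop motif at chr19:5799376-5799403 had 91.5% and 93.1% in vitro, and its K+ shares in cells were 1.73% and 4.52% on day 0, then 29.6% and 5.85% on day 3 and 9.57% and 8.4% on day 7. Its Li+ shares were 8.72% and 11.4%, 5.63% and 7.55%, and 7.34% and 11.7%. K+ was below Li+ in both day 0 samples, and on day 3 it was far above in replicate 1 and below in replicate 2. The bulged motif at chr19:5797755-5797775 had 6.36% and 1.59%, 16.5% and 4.28%, and 10.0% and 4.72% in K+, beside 12.1% and 3.59%, 3.10% and 2.00%, and 7.61% and 7.28% in Li+. Its mean day 7 difference was close to 0.

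Rcc1, the nuclear exchange factor of the GTPase Ran, showed the K+ excess on days 3 and 7. Its canonical motif at chr4:132332087-132332107 had 78.6% and 85.6% in vitro, and its K+ shares were 4.97% and 1.92% on day 0, then 18.3% and 9.88% on day 3 and 14.8% and 12% on day 7. Its Li+ shares were 4.44% and 6.17%, 4.43% and 1.92%, and 9.91% and 6.25%. All K+ values were above all Li+ values on days 3 and 7 (log2 odds 1.98 ± 0.60 and 0.78 ± 0.38, SE; limma adjusted p = 0.312 and 0.998). Csnk2a1, the catalytic subunit of casein kinase 2, was similar: its K+ shares were 4.23% and 4.69%, 22.0% and 11.8%, and 15.5% and 7.73%, and its Li+ shares 9.35% and 12.5%, 5.68% and 5.97%, and 6.51% and 7.50%. K+ was below Li+ on day 0 and above it on days 3 and 7 in every sample. Tubb5, a beta-tubulin, had K+ shares of 13.5% and 14.9% on day 3 and 12% and 8.63% on day 7, above Li+ shares of 2.39% and 2.99%, and 3.50% and 6%, again without overlap.

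Laptm4a, a lysosomal membrane protein, had 92.4% and 93.6% in vitro. Its K+ shares were 1.50% (5 of 333) and 0% (0 of 80) on day 0, then 10.4% and 2.21% on day 3 and 7.72% and 8.02% on day 7 (67 of 868 and 26 of 324). In Li+ it had 3.61% and 10.0%, 2.20% and 1.25%, and 3.35% and 5.42%. St13, a co-chaperone of Hsp70, had 91.1% and 90.3% in vitro, and its day 7 K+ shares were 3.96% and 1.96%, and its Li+ shares 2.54% and 6.10%. The cations overlapped at St13 on day 7 and were separated at Laptm4a. Arpc3, a subunit of the Arp2/3 actin nucleator, had 84.3% and 91.2% in vitro and K+ shares of 3.21% and 3.16% on day 0 and 6.20% and 5.20% on day 7.

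The other deep sites gave day 7 K+ means of 2.30% ± 0.444 at Rcc2, a regulator of chromosome condensation, 3.78% ± 0.578 at Mlf2, 4.79% ± 1.16 at Fkbp8, an FK506-binding protein of mitochondria, and 7.26% ± 0.67 at Swi5, a recombination factor (SD, n = 2). Aldh2, mitochondrial aldehyde dehydrogenase, had 9.20% ± 6.65, the widest spread of the 20. Lmnb1, which encodes lamin B1, held a site in its 3′ untranslated region at 5.90% ± 4.35 and a site in coding sequence at 6.61% ± 1.31. The Li+ means were 3.27% ± 1.19 at Rcc2, 5.22% ± 0.822 at Mlf2, 2.74% ± 0.406 at Fkbp8, 4.46% ± 0.459 at Swi5, 5.32% ± 3.57 at Aldh2, and 7.81% ± 0.62 and 7.47% ± 0.54 at the Lmnb1 sites (SD, n = 2). K+ exceeded Li+ on average at Fkbp8, Swi5 and Aldh2 and was lower at the others.

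**Figure D5:**
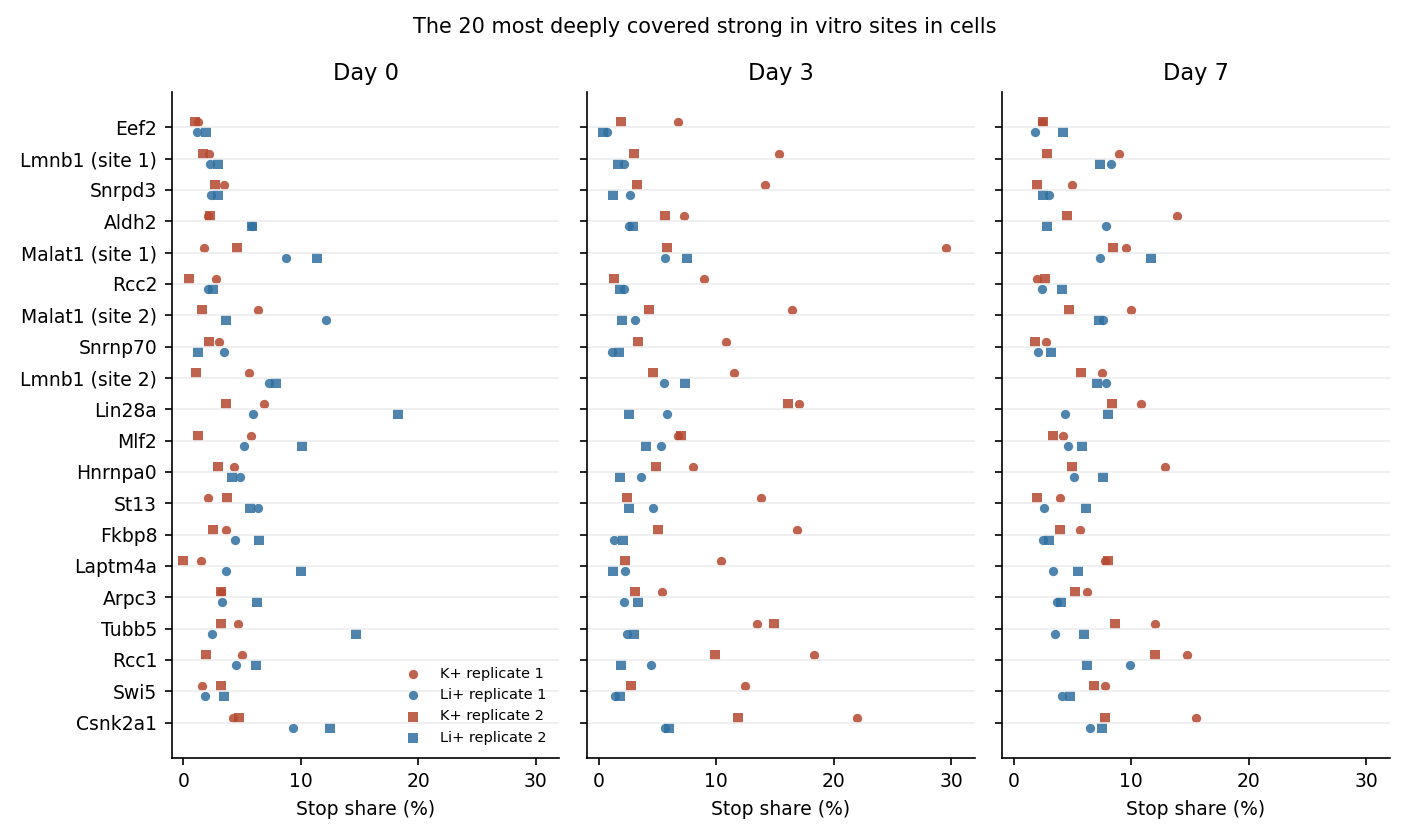
Stop share (%) of the 20 members with the highest minimum coverage in cells, in K+ (red) and Li+ (blue), with circles for replicate 1 and squares for replicate 2, on days 0, 3 and 7. The mean K+ share lies above the mean Li+ share at 2 of 20 sites on day 0, at 20 on day 3 and at 11 on day 7. Over all sites the median of the mean K+ minus Li+ difference was -0.721, 1.92 and 0.432 percentage points on these days.

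Besides Xist, the largest day 7 differences between cations were at Thrap3, Vat1, Cd151, Epo and Luc7l2. Thrap3, a factor of splicing and transcription (chr4:126165140-126165165), had K+ shares of 22.8% (23 of 101) and 14.6% (6 of 41) and Li+ shares of 5.92% (10 of 169) and 2.33% (1 of 43). Vat1 had 21.9% and 14.5% beside 6.44% and 3.23%. Luc7l2, a U1 snRNP-associated splicing factor, had 17.1% and 28% beside 8.20% and 10.7%. In these 3, all K+ values were above all Li+ values. The hormone gene Epo had 35.8% and 19.6% beside 17.2% and 11.9%, and Cd151 28.8% and 25.0% beside 18.5% and 8.82%, again without overlap. Their mean differences ran from 13.1 to 14.6 percentage points, and the limma adjusted p was 0.998 for each. They were named for the size of this difference, which is given as a description.

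The lowest mean day 7 differences, named after their values were seen, were -8.62 percentage points at Cdca8, a subunit of the chromosomal passenger complex, and -8.31 at a site of the autophagy gene Atg13. Cdca8 had 2.74% and 3.45% in K+ beside 6.76% and 16.7% in Li+, and Atg13 3.70% and 0% beside 5.32% and 15%, both without overlap and with at most 2 K+ stops in a library. Members with a day 7 difference near 0 included some of the strongest folders in vitro. Samm50, a subunit of the mitochondrial sorting and assembly machinery, had 91.9% and 96.2% in vitro. On day 7 it had 9.36% and 7.10% in K+ and 6.37% and 10.2% in Li+. Vasp, a regulator of actin filaments, had 92.6% and 90.2% in vitro, and on day 7 8.14% and 5.26% in K+ and 4.88% and 8.55% in Li+. At both, replicate 1 was higher in K+ and replicate 2 in Li+, and the mean cancelled. Rer1, a Golgi retrieval receptor, had 2.88% (6 of 208) and 0% (0 of 105) in K+ and 0.515% and 2.53% in Li+. Mydgf, a secreted growth factor, had 9.02% and 3.21% beside 6.88% and 5.50%, and the histone demethylase Kdm4a 5.26% and 0% beside 0.752% and 4.44%.

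Trim71 and Dynll2 held several members and were singled out for their values. In-cell shares are given for some of their sites, and differences between sites were not tested. The Lmnb1 sites given above had day 7 means near each other in both cations. The 3 sites of Trim71, a stem cell RNA-binding protein and ubiquitin ligase, had in vitro K+ shares between 84.3% and 90.4%. On day 7 the site at chr9:114507830-114507847 had 8.97% and 7.86% in K+ beside 2.48% and 6% in Li+, without overlap. The site at chr9:114507888-114507902 had 3.21% and 5.38% beside 3.56% and 3.17%, which overlapped. At Dynll2 the site with 93.1% and 97.8% in vitro had 21.7% and 12.2% in K+ on day 7 beside 14.9% and 13.6% in Li+, and the site with 77.3% and 80.8% in vitro had 12.8% and 1.75% beside 11% and 11.4%. In K+ the replicates of a Dynll2 site lay about as far apart as these sites did. Sites of a gene share its RNA and libraries and are not replicates of each other.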

How the data were processed

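Stops and coverage were analysed from 8 deposited tables, 6 from DMS-treated cells and 2 named in vitro. Per the file headers, the deposited values are whole-number read counts per site and cation, not normalised. These records run over 2 lines each and were entered as unit other. The fit was made on log2 odds with weights taken from the counts, and Fisher's exact test used the counts. Per the submitters' processing notes the authors used cutadapt, STAR and SAMtools (versions not stated) and the builds GRCm38.p6 and mm10; the alignment settings and the treatment of strand and multiply mapped reads were not given in the sources used here. Motif positions were converted to 1-based. The stop share is stops over coverage in percent, given at 20 or more reads. Total listed coverage in cells was 413278 to 4212056 reads per library, and 2 sites of Xist, not members, carried no value in day 0 replicate 1.

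The log2 odds of stopping (pseudocount 0.5) were fitted, where each library compared had 20 or more reads, in limma 3.58.1 under R 4.3.3, over all 12 in-cell libraries without covariates. Weights came from a beta-binomial variance (correlation 0.0104). Calls need a Benjamini-Hochberg adjusted p under 0.05, two-sided, over all sites tested. Fisher's exact test (two-sided) compared read counts within replicates, and its p-values take reads as independent. Intervals are exact Clopper-Pearson intervals. The fit was tested on simulated data. Across sites, the K+ deviations of same-numbered samples of different days did not correlate (r = 0.0187, -0.0169 and 0.0217), so limma has no replicate block. Such a correlation cannot show a shift shared by a whole library. The K+ medians over all sites were higher in replicate 1 than in replicate 2 on each day (2.50% and 1.93%, 5.45% and 3.03%, 4.48% and 2.96%). The Fisher tests between days still compare same-numbered samples. Alternatives were other read minimums, pseudocounts, weights, thresholds, blocks, cation columns exchanged in day 0 replicate 2 or, added after seeing the data, day 7 replicate 2, and left-out samples.

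The members, the lists and the tests were chosen with earlier results of these data known. Sites named are the 20 members with the highest minimum coverage in cells, the 6 with the smallest and the 6 with the largest day 7 difference between cations, 3 on each side of the threshold, the 5 with the highest in vitro share, and any called; others are said to be singled out for their values. Sequences are from the deposited table. Motifs over 30 nt, spliced motifs and those on chromosome 18 are not printed.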

Additional observations from a re-analysis of the deposited data

Results flagged for a closer look

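Some results had opposite signs in every sample of 2 days; these oppositions were not tested as differences except where stated. The median K+ minus Li+ stop share of members was -0.434 and -3.62 percentage points in the day 0 replicates and 10.0 and 2.71 in the day 3 replicates. Over all sites, Li+ was above K+ in both replicates at 32.3% on day 0, and K+ above Li+ in both at 48.2% on day 3. Sites with both patterns were not counted over all sites. Among the 20 deepest members, 8 were lower in K+ in both day 0 samples and higher in both day 3 samples. Their mean differences in percentage points were -0.645 on day 0 and 7.28 on day 3 at the Lmnb1 site in the 3′ untranslated region, -3.65 and 3.74 at Aldh2, and -3.88 and 7.82 at the bulged Malat1 site. They were -0.884 and 3.71 at Hnrnpa0, -2.37 and 9.29 at Fkbp8, -6.06 and 4.60 at Laptm4a, -0.239 and 6.07 at Swi5, and -6.47 and 11.1 at Csnk2a1.

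On day 7, K+ was above Li+ in both replicates at 30.6% of all sites. Between day 0 and day 7, 6 of the 20 deepest members changed sign in every sample. The day 7 means were 3.88 at Aldh2, 2.05 at Fkbp8, 3.48 at Laptm4a, 2.80 at Swi5 and 4.61 at Csnk2a1. At Arpc3 the means were -1.60 on day 0 and 1.82 on day 7. The limma test of this change of odds called none of 1261 sites, with 76 at an unadjusted p under 0.05. Between day 3 and day 7 the sign changed in every sample at Mlf2, from 2.18 to -1.43 percentage points, which was not tested. Values of single sites rest on few stops per library.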

How the results depend on the processing

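The 7 counts of called members were 0 in limma with all samples. Without 1 sample of a day, a median over members is that of the other sample, so for day 3 in K+ it was 4.88% or 13.8% and not 9.34%. With at least 10 reads per site the mean of medians was 1.67% and not 2.54% for day 0 in K+, and 1.74% and not 2.68% for day 3 in Li+. Fisher's exact test required in both replicates called 1 member for K+ against Li+ on day 3 and 1 for the K+ share of day 7 against day 0. Leaving out samples in turn gave 0 to 6 called members for day 3 against day 0 and 0 to 1 for day 7 against day 3, and the highest values of both came from the fit without day 3 replicate 2, which called 14 of 965 and 5 of 1159 sites. With the replicate block in the fit, 0 members were called in every comparison, but 2 of all sites were called for day 7 against day 0 in K+ and 2 for day 7 against day 3; within samples, K+ and Li+ deviations correlated with r of 0.0117, 0.0101 and 0.143 on days 0, 3 and 7. Centring each library and exchanging the cation columns of day 7 replicate 2 were chosen after seeing the data and called 0 members. Depth limits all of this: 72 of 903 members had 20 reads in all 12 libraries.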
